A study of Homo sapiens with 6 samples.

Results

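The BCL2 family sets whether a cell commits to the mitochondrial route of apoptosis, and TNFRSF10B, which encodes death receptor 5, starts the route that runs from the cell surface. The 10 genes described here were given as a list of apoptosis regulators and found by symbol among the 57820 genes of the count table, where each had 1 row. Of these, 4 are pro-survival (BCL2, BCL2L1, BCL2L2 and MCL1) and 6 are pro-death (BCL2L11, PMAIP1, BID, BAD, BNIP3L and TNFRSF10B). The rule names the genes and uses no measured value, although the list was chosen with earlier results of these data known. All 10 passed the filter on low counts.

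RNA came from HEK293 cells, an established line from human embryonic kidney, that received either minocycline at 100 µM or the vehicle dimethyl sulfoxide (DMSO) for 12 h, without heat shock. Each group held 3 libraries of total RNA that the series describes as biological replicates. The labels give each replicate number also as a batch, so that every batch holds 1 vehicle and 1 minocycline library. Minocycline is a tetracycline antibiotic, and the comparison asks how transcript levels differ after the drug. HEK293 cells carry the adenovirus genes E1A and E1B. One E1B product is a viral counterpart of BCL2 and another inactivates p53, so the line is a limited model of how cells enter apoptosis. Viral transcripts were not analysed here.

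Pro-survival members hold the effectors BAX and BAK1 in check on the outer mitochondrial membrane. The BH3-only proteins, among them BIM (gene BCL2L11), NOXA (PMAIP1), BID and BAD, bind the groove of the pro-survival proteins and free the effectors, each with its own preferred partners. Ligand-bound death receptors activate caspase-8, which cuts BID and so joins both routes. Many of these proteins are controlled after transcription, for example by degradation, phosphorylation or cleavage, and a transcript count does not report those steps.

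The total count was 17303180 to 17835756 per library. On the first principal component of all genes, which held 52.9% of the variance, control replicate 1 (-34.9), minocycline replicate 2 (-32.3) and minocycline replicate 1 (-14.0) had negative scores, and minocycline replicate 3 (3.06) and control replicates 2 (31.1) and 3 (47.1) had positive ones. This main axis therefore crossed the groups. Of 6 markers known for the line, 5 were measured, and KRT8 had 12083 to 17334 counts, VIM 9424 to 14969, KRT18 1666 to 2443, NEFM 1159 to 1556 and PAX2 48 to 93. NEFL was not analysed here. Among 10 markers of other cells, COL1A1 (927 to 1428 counts), ACTA2 (61 to 134) and NPHS1 (1 to 9) were present in every library. PTPRC, CD3E, CD68, ALB, HBB and CDH5 had 0 to 4 counts, and PECAM1 was not analysed here. The summed count of these markers was 1358 to 1503 in the vehicle libraries and 1051 to 1372 with minocycline.

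RefSeq windows upstream of annotated starts (GRCh38.p14) were at hand for 6 members. BID had 5 windows, BCL2L1 and BAD had 2 each, and BCL2, BCL2L11 and PMAIP1 had 1 each. These starts need not be the gene starts on GRCh37 given below. The windows of PMAIP1 and BCL2L11 are shown because both genes have textbook regulators whose binding letters could be looked for, ATF and CREB factors for PMAIP1 and FOXO factors for BCL2L11. Each runs over the 250 bases before the start, 5′ to 3′ on the plus strand, with capitals marking the matched letters.
PMAIP1, chr18:59899746-59899995: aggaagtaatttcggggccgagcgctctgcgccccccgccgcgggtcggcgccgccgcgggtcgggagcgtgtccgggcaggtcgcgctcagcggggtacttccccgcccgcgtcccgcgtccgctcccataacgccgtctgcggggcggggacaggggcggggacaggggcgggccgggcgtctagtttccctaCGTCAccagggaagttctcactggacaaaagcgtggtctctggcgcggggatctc
BCL2L11, chr2:111120664-111120913: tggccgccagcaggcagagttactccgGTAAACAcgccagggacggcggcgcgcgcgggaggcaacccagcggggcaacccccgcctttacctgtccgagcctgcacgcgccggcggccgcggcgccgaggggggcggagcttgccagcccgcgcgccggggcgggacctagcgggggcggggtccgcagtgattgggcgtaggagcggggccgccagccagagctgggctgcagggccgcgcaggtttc

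Both strands of each window were searched for 5 letter strings. The capitals in the PMAIP1 window are the reverse strand of TGACG, the core of the ATF and CREB element, 51 to 55 bases before the start. This core was in 21.2% of the 35116 windows of the table, and among the members also in windows of BAD, BCL2 and BCL2L1. The whole element TGACGTCA, which contains the core, was in 1.65% of windows and in none of the members' windows, nor was TGATGNAAN, the response element of CEBP and ATF factors, which 3.13% of windows held. In the BCL2L11 window the capitals are GTAAACA, a FOXO element, 217 to 223 bases before the start, which 2.98% of windows held. CACGTG, an E-box, was in 6.34% of windows and among the members only in some of the windows of BID. The percentages are per window, so a member with more windows had more chances of a match. A match is a description of the letters and not a measured binding site.

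No member changed past the threshold. Of the 10 genes, 0 had an adjusted p under 0.05 in edgeR's quasi-likelihood test with Benjamini-Hochberg adjustment over all 17225 genes tested, of which 0.0522% passed. DESeq2, in which 0.284% of all genes passed, and limma-voom, in which 0.0639% passed, also called 0 members. The same held with the replicate number as a block (0.0755% of all genes passed), with 1 surrogate variable (0.528%) and with a correction for gene length and GC content (0.167%). At an unadjusted p under 0.05, which 4.70% of all genes reached, there were 0 members as well. The smallest p was that of PMAIP1, the gene of NOXA. Its 3 minocycline libraries lay above its 3 vehicle libraries, which made it 1 of 10 members with groups that did not overlap, against 9.31% of all genes in either direction.

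The values behind this are best seen by library. In the text below, levels are in CPM, a gene's counts relative to the library size after TMM scaling, in the order of replicates 1, 2 and 3, and fold changes are minocycline against vehicle with a 95% interval from the edgeR fit. Adjusted p-values are from the same test over all genes.

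**Figure D1:**
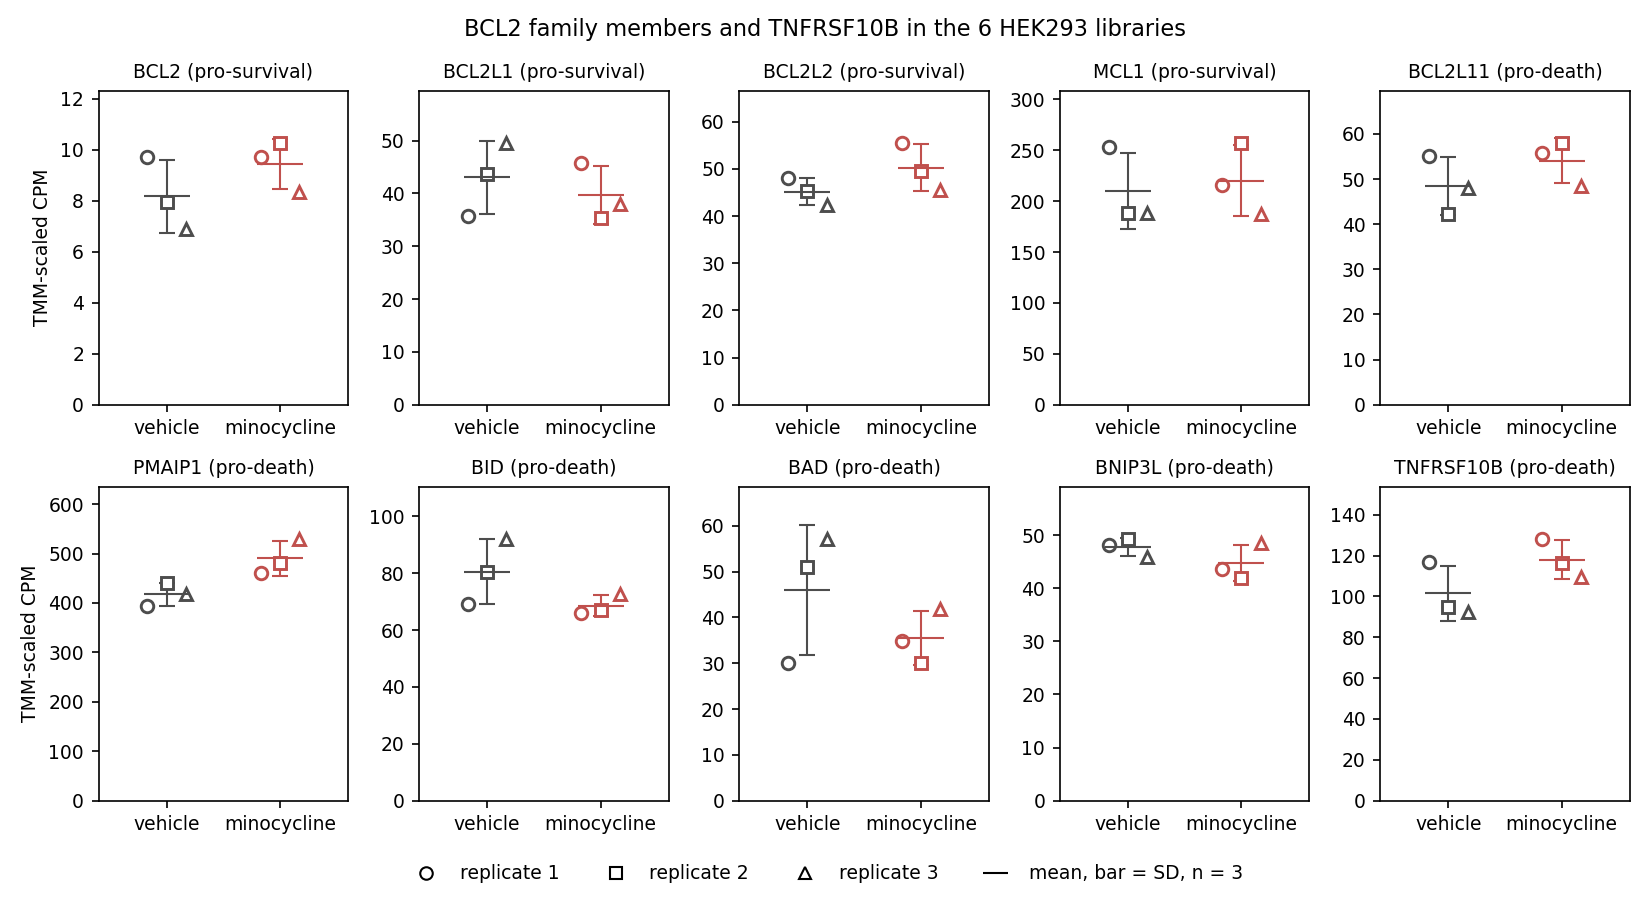
Level of each of the 10 members in TMM-scaled CPM (vertical axis, from 0) in the vehicle and minocycline libraries, with replicates 1 to 3 as circle, square and triangle and the mean ± SD (n = 3) as lines. PMAIP1 is the 1 member whose minocycline libraries (461 to 530 CPM) all lie above its vehicle libraries (394 to 441 CPM).

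MCL1 is a short-lived pro-survival protein that is bound by NOXA and BIM. Its transcript stood at 254, 189 and 188 CPM with vehicle and at 215, 257 and 188 CPM with minocycline. The high libraries were control replicate 1 and minocycline replicate 2, and the groups overlapped over almost their whole range. The means were 210 ± 37.6 and 220 ± 35.1 CPM (SD, n = 3 per group), and the log2 fold change was 0.07 ± 0.17 (SE; interval -0.31 to 0.45; adjusted p = 0.928). Its direction depended on single libraries, since the log2 value was -0.01 without control replicate 2, -0.02 without control replicate 3 and -0.06 without minocycline replicate 2.

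BCL2, the founding pro-survival gene of the family, was the least abundant member, at 9.73, 7.94 and 6.89 CPM with vehicle and 9.72, 10.28 and 8.34 CPM with minocycline. Control replicate 1 lay between minocycline replicates 1 and 2, while the other vehicle libraries were below all minocycline libraries. Its log2 fold change was 0.21 ± 0.19 (interval -0.22 to 0.63; adjusted p = 0.830).

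BCL2L1 encodes BCL-XL, which holds BAX and BAK1 and is a partner of BAD. It measured 35.7, 43.8 and 49.6 CPM with vehicle against 45.7, 35.3 and 38.1 CPM with minocycline. The lowest libraries were again control replicate 1 and minocycline replicate 2, here on the low side. The log2 fold change was -0.12 ± 0.17 (interval -0.49 to 0.26; adjusted p = 0.880).

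BCL2L2 encodes BCL-W, a further pro-survival protein. Levels were 48.0, 45.3 and 42.3 CPM with vehicle and 55.5, 49.6 and 45.5 CPM with minocycline. Each minocycline library exceeded the vehicle library of its own batch, yet the groups overlapped. The log2 fold change of 0.15 ± 0.13 did not pass (interval -0.15 to 0.45; adjusted p = 0.829). BCL2L2 shares exons with the read-through gene BCL2L2-PABPN1 (6 to 17 counts) and overlaps PPP1R3E on the other strand.

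Among the BH3-only genes PMAIP1 was by far the most abundant. NOXA, its product, binds MCL1 and promotes its degradation, and p53 and ATF4 are known inducers of the gene. It had 394, 441 and 418 CPM with vehicle and 461, 480 and 530 CPM with minocycline. All minocycline libraries were higher, but the gap between the groups was smaller than the SD within either. The means were 418 ± 23.5 and 490 ± 35.3 CPM, a fold of 1.17 (interval 0.962 to 1.43) and a log2 fold change of 0.23 ± 0.13. This did not pass (unadjusted p = 0.102, adjusted p = 0.820). The differences within batches 1, 2 and 3 were 0.23, 0.12 and 0.34 on the log2 scale. Over 17 other ways of processing, the log2 value ran from 0.16 to 0.31 with an adjusted p of 0.284 to 1.00.

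BCL2L11 encodes BIM, which binds every pro-survival member and is induced by FOXO factors. Levels were 55.1, 42.2 and 48.0 CPM with vehicle and 55.7, 58.0 and 48.5 CPM with minocycline. Control replicate 1 lay among the minocycline libraries. The log2 fold change was 0.16 ± 0.15 (interval -0.17 to 0.49; adjusted p = 0.830). MIR4435-2HG, a noncoding gene with 290 to 334 counts, overlaps 10.8% of the annotated exon bases of BCL2L11 on the other strand.

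BID, the substrate of caspase-8, measured 69.0, 80.5 and 92.1 CPM with vehicle and 65.9, 66.9 and 72.7 CPM with minocycline. Each minocycline library was below the vehicle library of its batch, but control replicate 1 lay within the minocycline range. The log2 change was -0.23 ± 0.14 (interval -0.55 to 0.08; adjusted p = 0.820).

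BAD, whose protein binds BCL2 and BCL-XL unless it is phosphorylated and held by 14-3-3 proteins, had the widest spread. It stood at 30.1, 51.0 and 57.1 CPM with vehicle and at 34.9, 30.0 and 41.7 CPM with minocycline. The vehicle SD was 30.8% of the mean, against 3.67% to 17.9% for the other members. Control replicate 1 was as low as the lowest minocycline library. The log2 change of -0.37 ± 0.23 did not pass (interval -0.90 to 0.15; adjusted p = 0.820), and it was 0.22, -0.77 and -0.45 within batches 1, 2 and 3.

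BAD was also the only member to pass in any of the 17 alternatives, and it did so in 1. Without control replicate 1 its log2 change was -0.61 (adjusted p = 0.0122, edgeR), in a fit in which 17.9% of all 17658 genes passed. The call thus depends on leaving that library out. GPR137 overlaps 23.7% of the annotated exon bases of BAD on the other strand, and strand use in the counting is not given in the sources used here. Further members overlap genes on the opposite strand. ABALON covers 41.3% of the exon bases of BCL2L1 and has no row in the count table, so its level is not known. PNMA2 (718 to 965 counts) covers 7.95% of those of BNIP3L, and RHOBTB2 (196 to 296 counts) 7.52% of those of TNFRSF10B.

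BNIP3L encodes NIX, a receptor of the outer mitochondrial membrane that recruits the autophagy machinery to mitochondria. Levels were 48.2, 49.3 and 45.9 CPM with vehicle and 43.6, 42.0 and 48.5 CPM with minocycline. This was the most even member among vehicle libraries, and the groups overlapped through minocycline replicate 3. The log2 change was -0.10 ± 0.13 (interval -0.38 to 0.19; adjusted p = 0.865).

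TNFRSF10B encodes death receptor 5, a receptor for TRAIL and a known target of CHOP and p53. It measured 117, 95.1 and 92.5 CPM with vehicle and 128, 116 and 110 CPM with minocycline. Each minocycline library exceeded the vehicle library of its batch, by 0.13, 0.29 and 0.24 on the log2 scale, but control replicate 1 lay above minocycline replicates 2 and 3. The log2 fold change was 0.22 ± 0.14 (interval -0.09 to 0.53; adjusted p = 0.820). By the rule set for the description, the 3 genes with the most similar pattern of log2 CPM over the 6 libraries were SLC2A3 (Pearson r = 0.997), PLEKHH1 (r = 0.995) and NRP2 (r = 0.994). They are the extremes of 11873 genes compared over libraries that share the main axis of variation, and none passed the test (log2 fold changes 0.36 ± 0.19, 0.30 ± 0.18 and 0.44 ± 0.23).

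**Figure D2:**
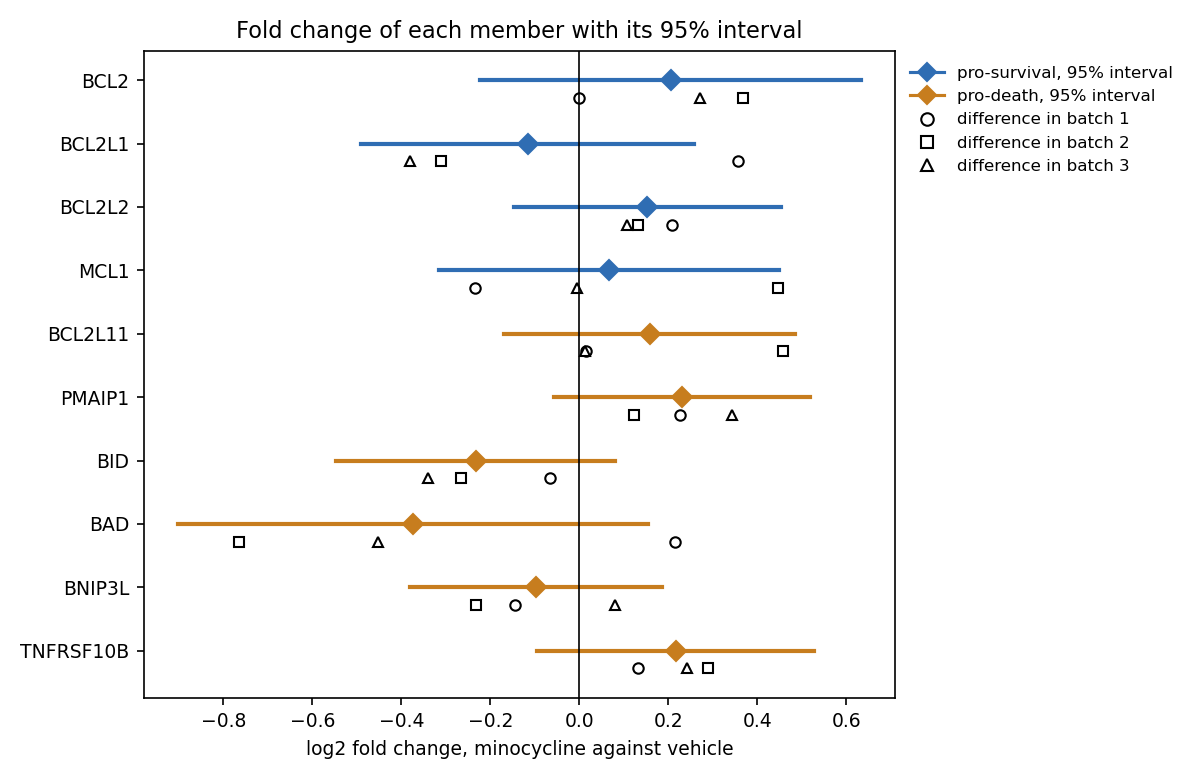
Log2 fold change, minocycline against vehicle, of each member (diamond) with its 95% interval from the edgeR fit (line; blue for pro-survival, orange for pro-death), and the log2 difference within each labelled batch (open circle, square and triangle). All 10 intervals contain 0, and BAD has the widest, from -0.90 to 0.15.

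Read against one another, the classes did not separate. Of the 4 pro-survival members 3 had a fitted level above vehicle and 1 below, with a median log2 fold change of 0.11, which ran from 0.039 without control replicate 3 to 0.21 without control replicate 1 and was 0.023 with the length and GC correction. Of the 6 pro-death members 3 were above and 3 below, with a median of 0.03, which fell on either side of 0 when single libraries were left out (-0.0034 without control replicate 2, -0.0037 without minocycline replicate 3, 0.050 without control replicate 1). Across all genes tested the median was 0.01, and 52.1% had a fitted value above 0. The class medians were 0.10, 0.25 and 0.05 within batches 1, 2 and 3 for the pro-survival members, and 0.07, -0.05 and 0.05 for the pro-death members. The pro-death members above vehicle were PMAIP1, TNFRSF10B and BCL2L11, and those below were BAD, BID and BNIP3L.

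The intervals set what these libraries can say. The largest fold compatible with a 95% interval was 1.55 for BCL2, and the smallest was 0.535 for BAD. A 2-fold change in either direction thus lay outside every member's interval. Simulated counts were drawn with the dispersion of these libraries, with the changed genes picked at random from all genes tested. The test recovered 7.46% of those given a 1.5-fold change and 56.7% of those given a 2-fold one. Each simulated gene varied independently, without the main axis these libraries share, so these percentages are not the power for the members. Every fitted change here was below 1.5-fold. In bulk RNA, fewer cells with a transcript and less of it per cell cannot be told apart.

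The members were also read along the main axis between libraries. In 7 of 10 members the 3 libraries with negative scores on the first component were either all higher or all lower than the other 3, an arrangement found in 36.0% of all genes tested. BCL2, BCL2L2, MCL1, BCL2L11 and TNFRSF10B were higher in control replicate 1 and minocycline replicates 1 and 2, and BID and BAD were lower in them. PMAIP1, BCL2L1 and BNIP3L showed neither order. The component was computed from all genes, the members included, and its part in each fold change was not tested. With 1 surrogate variable in the model the log2 change of BAD was -0.02, that of MCL1 -0.11 and that of BCL2L1 0.04, while PMAIP1 stood at 0.28 (adjusted p = 0.348). This variable was estimated from the same 6 libraries and entered as known, so the p-values of that fit do not allow for the estimation. Its values were 0.483, -0.403 and -0.626 with vehicle and 0.16, 0.43 and -0.0449 with minocycline, so it was not balanced between the groups.

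**Figure D3:**
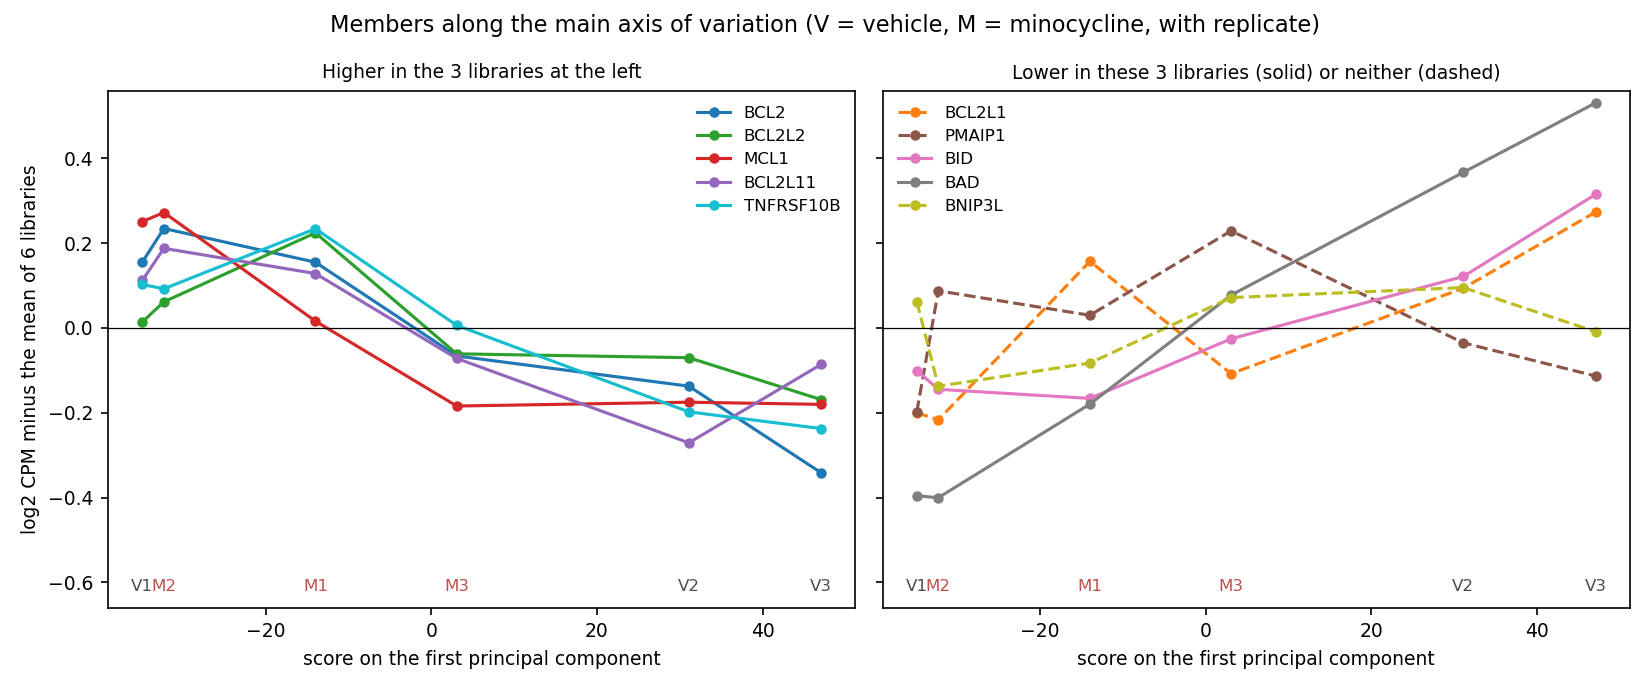
Log2 CPM of each member minus its mean over the 6 libraries (vertical axis) against the library's score on the first principal component (horizontal axis; V, vehicle, M, minocycline, with the replicate number). The 5 members on the left are higher in V1, M2 and M1, BID and BAD on the right (solid) are lower in them, and BCL2L1, PMAIP1 and BNIP3L (dashed) show neither order.

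Levels were compared between genes per kilobase of annotated exon (RPKM from TMM-scaled CPM), which depends on the annotated length. With vehicle PMAIP1 led at 191 ± 10.8 RPKM, and its lowest library (180 RPKM) was above the highest library of every other member. Next came MCL1 at 33.8 ± 6.05, BAD at 27.0 ± 8.31, TNFRSF10B at 20.3 ± 2.70 and BID at 18.2 ± 2.61 RPKM, and each of these overlapped its neighbour in this order. BNIP3L (11.5 ± 0.422), BCL2L1 (10.2 ± 1.66) and BCL2L2 (9.33 ± 0.592 RPKM) formed a further run of overlapping levels. BCL2L11 followed at 7.18 ± 0.954 RPKM and BCL2 was last at 0.649 ± 0.114 RPKM, neither range touching its neighbours. With minocycline the order was the same except that TNFRSF10B (23.6 ± 1.89) stood before BAD (20.8 ± 3.46) and BCL2L2 (10.4 ± 1.04) before BCL2L1 (9.46 ± 1.29 RPKM).

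Within each class 1 gene gave most of the counts, which are not corrected for exon length here. MCL1 gave 65.6% to 73.1% of the counts of the pro-survival members, and PMAIP1 gave 55.2% to 62.3% of those of the pro-death members. As NOXA and MCL1 proteins bind each other, the ratio of their transcript counts was taken in each library. Neither ratio given here is corrected for exon length. The annotated exons span 2186 bases for PMAIP1 and 6222 for MCL1, and 1708 for BAD and 4197 for BCL2L1. The ratios therefore compare libraries and do not give relative transcript numbers of the 2 genes. It was 1.55, 2.34 and 2.22 with vehicle and 2.14, 1.87 and 2.82 with minocycline, so the groups overlapped (two-sided exact permutation test, p = 0.60). The ratio of BAD to BCL2L1 was 0.842, 1.17 and 1.15 with vehicle and 0.763, 0.849 and 1.10 with minocycline (two-sided exact permutation test, p = 0.30). Both were 0.60 after adjustment over the 2 ratios, and the smallest p this design allows is 0.10. Within batches the ratio of BAD to BCL2L1 was lower with minocycline in 3 of 3, for which a paired exact permutation test gives p = 0.25, the smallest it can give with 3 pairs, and that of PMAIP1 to MCL1 was higher in 2 of 3 (paired exact permutation test, p = 0.50).

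The wider pathway was read from 6 further lists with 81 genes, of which 74 were tested. None passed over all genes, and 4 (5.41%) had an unadjusted p under 0.05, against 4.70% of all genes. The groups did not overlap in 5 of the 74 (6.76%), against 9.31% of all genes. These 5 were ATF4, HRK, TNFRSF1A, MYC and CALCOCO2, each higher with minocycline, and MYC and CALCOCO2 are named for this count after their values were seen.

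**Figure D4:**
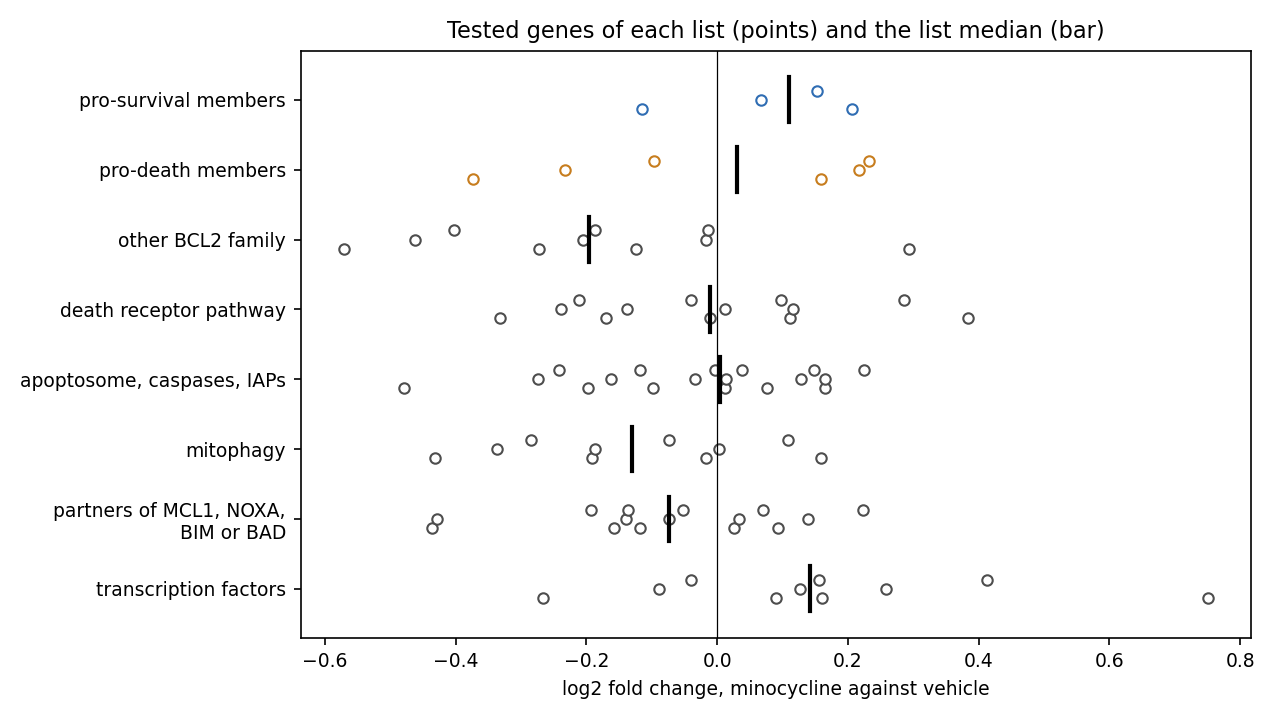
Log2 fold change, minocycline against vehicle, of each tested gene (points) of the 2 member classes and the 6 further lists, with the list median as a bar. No gene shown passed the test, and the point farthest to the right is ATF4 at 0.75.

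Of the other BCL2 family genes 10 of 14 were tested, with 1 above vehicle, 9 below, a median of -0.20 and 0 past the threshold. The 3 with the smallest p were BCL2L12 (log2 change -0.40 ± 0.16), the BH3-only gene BIK (-0.57 ± 0.23) and the BH3-only gene HRK (0.29 ± 0.14), each at an adjusted p of 0.820. The effectors are named for their role, outside the rule. BAX measured 127, 216 and 250 CPM with vehicle and 144, 125 and 161 CPM with minocycline, with control replicate 1 among the low libraries (-0.46 ± 0.23, adjusted p = 0.820). BAK1 went from 82.6 ± 7.33 to 71.7 ± 6.65 CPM (-0.20 ± 0.13, adjusted p = 0.820). The further relatives BCL2A1, BCL2L10, BCL2L14 and BCL2L15 had at most 11 counts in any library and were not tested.

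The death receptor list had 13 of 16 genes tested, 6 above and 7 below vehicle, a median of -0.01 and 0 past the threshold. TNFRSF1A, the main receptor for TNF, showed 0.29 ± 0.13, FADD, the adaptor that brings caspase-8 to death receptors, -0.33 ± 0.19, and the receptor gene FAS 0.38 ± 0.26, each at an adjusted p of 0.820. TNFRSF10B was the most abundant of the TRAIL receptor genes per length with vehicle. The other death-inducing receptor TNFRSF10A was at 0.812 RPKM, and the decoy receptors TNFRSF10D and TNFRSF10C were at 9.63 and 3.18 RPKM. Ligand transcripts were scarce, with 0 to 8 counts per library for TNFSF10, which encodes TRAIL, and 0 counts in all libraries for FASLG and TNF. These receptors and ligands, too, were named for their role.

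All 18 genes for the apoptosome, caspases and inhibitors of apoptosis were tested, with 9 above and 9 below vehicle, a median of 0.00 and 0 past the threshold. ENDOG, a mitochondrial nuclease, showed -0.48 ± 0.19, CYCS, which encodes cytochrome c, -0.27 ± 0.13, and BIRC5, which encodes survivin, -0.24 ± 0.17. All 3 were lower in the libraries with negative scores on the first component. Of the 74 tested genes of the further lists, 41.9% were all higher or all lower in those libraries, against 36.0% of all genes. The 10 mitophagy genes, the setting of BNIP3L, had 3 above and 7 below vehicle, a median of -0.13 and 0 past the threshold. Among them FKBP8 showed -0.43 ± 0.23, PINK1 -0.28 ± 0.16 and FUNDC1 -0.34 ± 0.19. In the list of 15 proteins that act on MCL1, NOXA, BIM or BAD, 6 were above and 9 below, with a median of -0.07 and 0 past the threshold. DYNLL1, a dynein light chain that binds BIM family proteins, showed -0.43 ± 0.20, the kinase gene CDK5 -0.44 ± 0.24 and YWHAH, a 14-3-3 gene, -0.19 ± 0.13. The adjusted p was 0.820 for each gene named in these 3 lists.

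Of 10 transcription factors known to act on the members, 7 were above and 3 below vehicle, with a median of 0.14 and 0 past the threshold. ATF4, the factor of the integrated stress response, had the smallest p. It measured 528, 751 and 795 CPM with vehicle and 1204, 987 and 1298 CPM with minocycline, and the groups did not overlap (0.75 ± 0.19, adjusted p = 0.810). TP73, a relative of p53, showed -0.27 ± 0.14 and FOXO3 0.26 ± 0.16 (adjusted p = 0.820 for both). Without control replicate 1, where 17.9% of all genes passed, 15 of the 74 genes passed (20.3%), 4 higher and 11 lower, among them ATF4 and FOXO3 (higher) and BAX, BCL2L12, BIK, BIRC5, CDK5, DYNLL1, ENDOG, FADD, FKBP8, FUNDC1 and TP73 (lower). With 1 surrogate variable 2 of the 74 passed (2.70%, against 0.528% of all genes), ATF4 (0.98, adjusted p = 3.5e-05) and DDIT3, which encodes CHOP (0.87, adjusted p = 0.00556). ATF4 passed in 4 of its 17 alternatives, the other two being no filter on low counts and the length and GC correction with the block, and its adjusted p ran up to 1.00. DDIT3 passed in 1 of its 17 alternatives. In the main edgeR fit it showed 0.41 ± 0.30 (adjusted p = 0.820), and the groups overlapped. The fit with the surrogate variable takes that variable as known, although it was estimated from these 6 libraries.

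Positions are those of the gene annotation on GRCh37. PMAIP1 (ENSG00000141682.11) occupies chr18:57567228-57571537 and BCL2 occupies chr18:60790579-60987361. MCL1 is at chr1:150533371-150552214, BAD at chr11:64037302-64052176, BCL2L1 at chr20:30252255-30311792 and BCL2L2 at chr14:23767999-23780960. BCL2L11 is at chr2:111876955-111926021 and BID at chr22:18216904-18257536. TNFRSF10B (chr8:22877646-22926544) and BNIP3L (chr8:26240570-26363152) share a chromosome arm. PMAIP1, BCL2L2, BCL2L11 and BNIP3L are read from the plus strand and the other 6 from the minus strand. All 10 are annotated as protein-coding. Counts were per gene, so that splice forms with opposite functions, as known for BCL2L1 and MCL1, were not separated.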

How the data were processed

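Gene counts from 6 HEK293 total RNA libraries (NEBNext Ultra II kit, paired-end reads, per the labels' protocols) were read from the table the authors deposited, which holds raw whole-number counts per gene without normalization. The genome build was hg19, per the submitters' processing notes. The aligner, the counting program and the use of strand are not given in the sources used here.

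Symbols and GRCh37 positions matched 55538 of 57820 identifiers. Genes were kept by filterByExpr, libraries scaled by TMM, and minocycline tested against vehicle with edgeR 4.0.16 in R 4.3.3 (glmQLFit, glmQLFTest), calling genes at a Benjamini-Hochberg adjusted p under 0.05. The test was tried on simulated counts for 17225 genes with 200 changed, where 6.25% of calls were unchanged genes. Standard errors are the log2 fold change divided by the root of F, and 95% intervals use the fit's degrees of freedom.

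The labels give the replicate number as the batch, so same-numbered libraries were taken as pairs for an alternative fit. Deviations from the group means correlated at -0.05, -0.29 and 0.30 in the 3 pairs. Between differently numbered libraries the correlation ran from -0.42 (control replicate 3, minocycline replicate 2) to 0.50 (control replicate 1, minocycline replicate 2). The highest value was thus not in a same-numbered pair. The alternatives were other scalings, DESeq2 1.42.0, limma-voom (limma 3.58.1), other filters, the block, 1 surrogate variable (sva 3.50.0), each library left out and, chosen with the data already seen, offsets that remove trends with exon length and GC (splines with 4 degrees of freedom), with and without the block.

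The members and lists were chosen with earlier results of these data known. Named genes are all 10 members, the 3 genes with the smallest p of each other list, any list gene past the threshold, and the 3 genes most like TNFRSF10B among those with a mean of at least 5 CPM. Others are marked.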

Additional observations from a re-analysis of the deposited data

How the results depend on the processing

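Over 17 alternatives no member passed, except BAD without control replicate 1 (1 member called). With the replicate block 13 genes and 0 members passed, and no member's call changed. Genes passing over the whole table numbered 9, and 49 with DESeq2, 94 without a filter on low counts, 91 with 1 surrogate variable, 28 with the length and GC correction, 36 with that correction and the replicate block, and 1 to 3154 when single libraries were left out. That count was 3154 without control replicate 1, 4 without control replicate 2 and 1 without minocycline replicate 1 or 3. The direction of MCL1 turned with 1 surrogate variable (-0.11), with the length and GC correction (-0.020, and -0.024 with the replicate block) and with single libraries left out (-0.061 to 0.22, below 0 without control replicate 2 or 3 or minocycline replicate 2), and that of BCL2L1 turned with 1 surrogate variable (0.036). The median of the pro-death members was 0.10 with library size alone, and -0.046 and -0.045 with the length and GC correction without and with the block, and it ran from -0.0037 to 0.050 with single libraries left out. That of the pro-survival members stayed above 0 in all 17 alternatives, from 0.021 with that correction and the block to 0.21 without control replicate 1. The other 8 members kept their direction in all 17 alternatives. The cause was not tested. With library size alone the median over all genes was 0.08, against 0.01. BCL2, with 114 to 189 counts, was the member with the least depth.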
